A study of Mus musculus with 6 samples.

Results

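Cytosolic ribosomal protein genes encode the proteins that, with the ribosomal RNAs, build the small and large subunits of the ribosome. They were taken from the deposited gene table by symbol: every symbol made of Rpl or Rps, a number and at most an a, x or l with a further digit, and in addition Rpsa, Rplp0, Rplp1 and Rplp2. This rule found 83 of the 18211 genes in the table and used no measured value. Of these, 77 are conventional ribosomal proteins, with 31 of the small subunit, 43 of the large subunit and 3 of the stalk, the arm of the large subunit that recruits elongation factors. The other 6 are variant genes, close relatives of a conventional gene: Rpl7l1, Rpl22l1, Rps27l, Rpl39l, Rpl3l and Rpl32l.

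Every cytosolic ribosome needs one copy of nearly every conventional protein, and surplus proteins are degraded, so their genes are usually expressed as one block. Most of their mRNAs start with a 5′ terminal oligopyrimidine (TOP) tract, a C followed by a run of C and T, through which the growth kinase complex mTORC1 and the RNA-binding protein LARP1 set their translation and stability. Rapidly growing precursor cells keep a large ribosome pool, and the mRNAs of these genes are among the most abundant in such cells.

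The libraries came from oligodendrocyte precursor cells (OPCs), the glial cells that mature into myelinating oligodendrocytes, of C57BL/6 mice. DISC1-Δ3 libraries (n = 3) came from NG2-CreERTM mice with 1 floxed allele of exon 3 of DISC1 (exon3 fl/+), in which tamoxifen removes that exon in NG2-expressing cells, and wildtype libraries (n = 3) came from mice without the CreERT transgene. Both groups received tamoxifen by gavage on 4 consecutive days, P4 to P7, and OPCs were taken at P7 by immunopanning on PDGFRα and lysed without culture in each group. Whether the wildtype mice carried the floxed allele is not given in the sources used here. Which animals, and how many, went into a library is not given in the sources used here, so p-values measure the spread between these libraries, which may be technical.

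Expected counts, in which reads matching several genes are divided between them, summed to between 13716626 and 16417221 per library. Disc1, the targeted gene, had 350, 406 and 455 reads in wildtype, compared with 295, 292 and 349 in DISC1-Δ3, a fitted log2 fold change of -0.45 ± 0.088 (SE, edgeR adjusted p = 0.000528); counts per gene do not see a single exon, so this checks no deletion. Among the OPC markers 7 of 10 were higher and 1 was lower in DISC1-Δ3, with summed RPKM of 552 to 572 in wildtype and 703 to 725 in DISC1-Δ3. Of all tested genes 20.4% were higher and 19.5% were lower (edgeR adjusted p under 0.05). Microglial markers were present in both groups at a summed RPKM of 15146 to 15437 and 10574 to 11014, and erythroid markers at 9350 to 9575 and 18111 to 19677, both above the OPC markers. DISC1-Δ3 library 3 stood apart within its group: chi-square per degree of freedom over genes was 5.42 and 5.01 in its pairs, against 1.81 to 2.99 in the other pairs.

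For 63 of the 83 genes the RefSeq promoter table (GRCm38.p6) holds the bases around the annotated start. The windows below run from 10 bases before the start to 20 bases from it, on the gene's strand, with capitals marking a C at the start base and the unbroken C and T run after it, where that run holds at least 4 bases. They are shown because the TOP tract is the sequence feature that the family is known for, because Rps6 is the target of the growth-regulated S6 kinases, and because Rpl11, Rpl7l1 and Rpl22l1 return in the results.
Rps6: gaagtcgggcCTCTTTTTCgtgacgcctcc
Rps10: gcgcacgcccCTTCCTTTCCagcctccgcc
Rps18: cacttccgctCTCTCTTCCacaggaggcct
Rpl15: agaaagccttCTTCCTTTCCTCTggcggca
Rpl28: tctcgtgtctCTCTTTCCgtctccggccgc
Rpl35: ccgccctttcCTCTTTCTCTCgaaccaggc
Rpl38: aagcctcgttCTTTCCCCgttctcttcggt
Rplp2: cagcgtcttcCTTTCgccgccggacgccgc
Rpl11: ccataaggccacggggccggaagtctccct
Rpl7l1: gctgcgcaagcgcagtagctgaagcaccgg
Rpl22l1: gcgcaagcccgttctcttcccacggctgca

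The Rps6 window lies at chr4:86857348-86857377 on the minus strand and the Rpl7l1 window at chr17:46782637-46782666 on the minus strand. The Rpl38 window lies at chr11:114668570-114668599 on the plus strand and the Rpl11 window at chr4:136053374-136053403 on the minus strand. Rpl11, Rpl7l1 and Rpl22l1 have no run of this kind at the annotated base, although the Rpl22l1 window holds a C and T stretch a few bases further in. A C at the annotated start followed by at least 4 bases that are each C or T was found for 14 of 63 members (22.2%), for 2.87% of 10903 tested genes that are not members and for 3.01% of all 27025 genes in the promoter table. The annotated start can lie some bases from the one the cells use, so a window without the run says only that these letters are not at that base. The letters CCGGAAG, the core recognised by ETS-family factors, occurred on either strand of the 300-base promoter windows of 26 of 63 members (41.3%) and of 18.5% of the tested genes that are not members.

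Ribosomal protein mRNAs were among the most abundant: 43 of the 100 genes with the highest mean RPKM over the 6 libraries (reads scaled by transcript length and library total) were members. This mean ranged from 42.3 to 2545 among the 77 conventional genes, with a median of 938, and 36 of them were at or above 1000. The highest was Rps26, a small-subunit protein at the mRNA exit, with an RPKM of 2535, 2661 and 2741 in wildtype libraries, against 2372, 2536 and 2425 in DISC1-Δ3 libraries. Rpl41, Rps2, Rps9 and Rps15 followed, with mean RPKM of 2437, 2016, 2006 and 1978. These levels differ little between the 6 libraries compared with the 60.2-fold range between genes.

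The lowest conventional levels belonged to Rps6, Rps15a and Rps20, with mean RPKM of 42.3, 80.7 and 86.9. Rps6, the small-subunit protein that S6 kinases phosphorylate, had 627 to 948 reads per library. Its count and RPKM imply a length of 1250 bases, above the 878 bases of its longest coding transcript in GENCODE, and 84.6% of its 50-base words also occur in transcripts of other genes. For Rps20 and Rps15a the implied lengths were 3302 and 4992 bases, against a median of 584 for the conventional genes. With 4451 and 6273 reads on average they were not low in counts.

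Reads of this family are hard to place, since the genome carries many processed copies of these genes. Of the 82 members with a coding transcript in GENCODE, 22 shared more than 50% of their 50-base words with transcripts of some other gene and 9 shared less than 10%. The median over members was 34.8%, with a range from 0% to 85.5%, the latter for Rpl36a. Only 19 shared any word with a gene that has a row in the table. Expected counts were whole numbers in all libraries for 66 members and held fractions in at least 1 library for 17, among them Rpl11, Rpl5, Rps6 and Rpl34, so values of these 17 depend on how the authors' counting divided reads.

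The question set by the design was how the mRNA of OPCs differs between DISC1-Δ3 and wildtype mice. Most conventional ribosomal protein mRNAs were lower in the DISC1-Δ3 OPC samples, which also held RNA of other cell types, each by a small amount. Of 81 members that passed the filter on low values (0.5 or more RPKM in 3 or more of the 6 libraries), 55 were lower and 1 was higher at an adjusted p under 0.05 (edgeR quasi-likelihood test on counts scaled by TMM, a factor that sets the bulk of genes equal, Benjamini-Hochberg over 13792 genes). Over all tested genes 19.5% were lower and 20.4% were higher. The median log2 fold change of the 81 members was -0.17, a change of -10.9%, with quartiles at -0.21 and -0.12, against a median of 0.0075 and quartiles of -0.19 and 0.19 over all tested genes. Abundant genes outside the family were often lower too. Of 197 tested genes that are not members and have a mean RPKM of at least 300, 106 were lower and 23 higher, with a median of -0.14. The other 2 members, Rpl3l and Rpl32l, had at most 7 and 2 reads in any library and were not tested.

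This count depended on the scaling of the libraries. When libraries were scaled to equal RPKM sums or by their totals alone, 24 and 23 members were lower and 3 were higher in each case. Over all tested genes 12.7% and 13.3% were then lower, and the median of all genes moved to 0.094 and 0.090. Such scaling shifts all genes of a library alike, so the gap of 0.17 between members and all genes was nearly fixed beforehand. After quantile normalization of log2(RPKM + 1), which forces equal value distributions on all libraries, 5 members were lower and 7 higher, and their median was 0.0025. In that setting 19.5% of all tested genes were lower, and 49.5% of all calls were higher. Leaving out wildtype 2 or wildtype 3 left 34 and 35 members lower, where 15.6% and 16.2% of all tested genes were lower. Leaving out DISC1-Δ3 3, the library that stood apart, left 56, where 24% of all tested genes were lower.

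**Figure D1:**
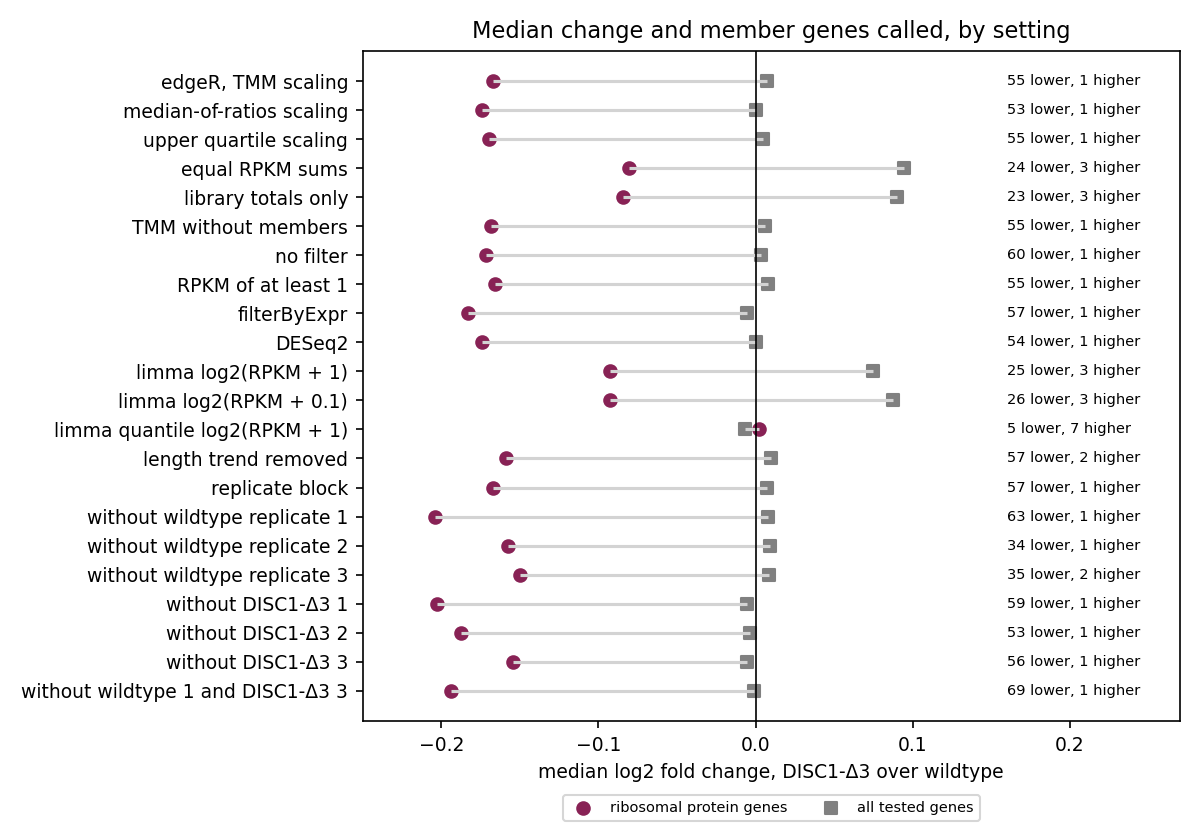
Median log2 fold change (horizontal axis) of the ribosomal protein genes (circles) and of all tested genes (squares) under each setting (rows), with the number of members lower and higher at an adjusted p under 0.05. Scalings shift both medians together, from -0.17 and 0.0075 to -0.081 and 0.094 with equal RPKM sums, and under quantile normalization the member median was 0.0025 and that of all genes -0.0070.

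**Figure D2:**
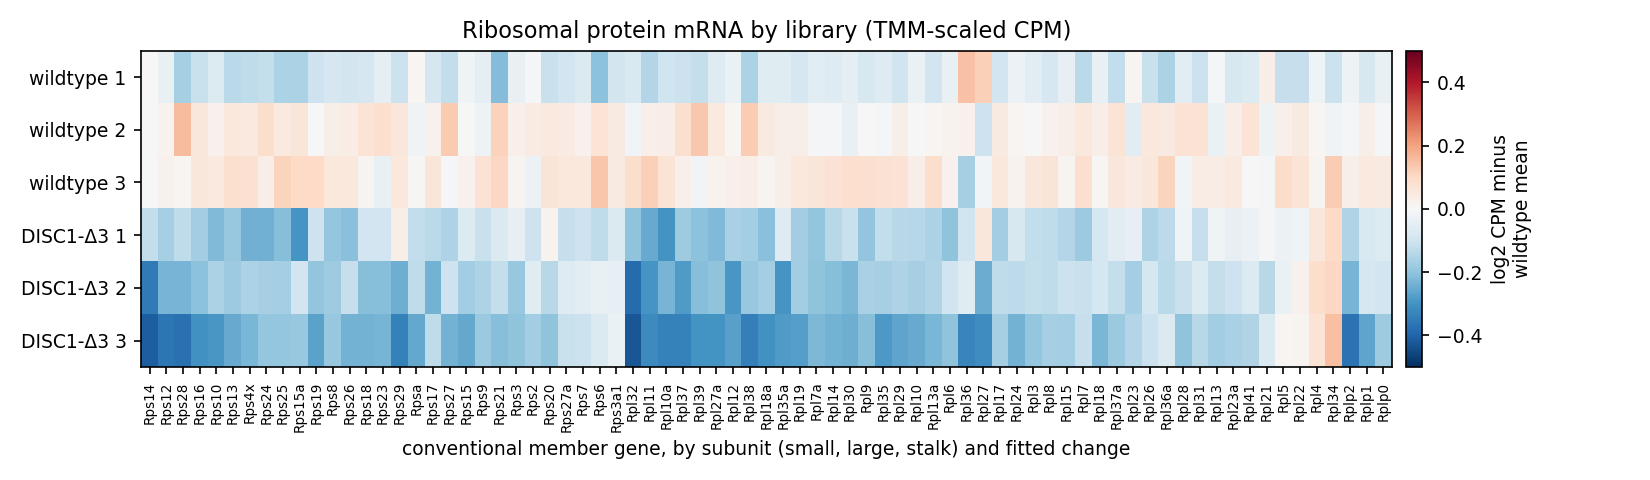
Scaled log2 CPM (counts scaled by library total) of the conventional ribosomal protein genes reported here (columns) in each library (rows), as the difference from the wildtype mean of that gene; blue is lower, red higher. Rows of DISC1-Δ3 are blue over most columns, with library medians of -0.13, -0.15 and -0.23, and wildtype 1 is lower than wildtype 2 and 3 for most genes; after quantile normalization of RPKM the direction of the median turned.

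The genes moved up and down together from library to library, within groups as well as between them. Relative to the wildtype mean, the median member was at -0.082, 0.030 and 0.050 on the log2 CPM scale in the wildtype libraries, in replicate order, and at -0.13, -0.15 and -0.23 in the DISC1-Δ3 libraries. Wildtype 1 was the lowest library of its group for 72 of the 81 members, and DISC1-Δ3 3 was the lowest of its group for 56. The 2 groups did not overlap in these medians, and the gap between the nearest libraries, wildtype 1 and DISC1-Δ3 1, was smaller than the range within either group. With wildtype 1 and DISC1-Δ3 3 both left out, a choice made after the data were seen, 69 members were lower and 1 was higher. Of all tested genes 22.8% were lower in that fit. Since members share libraries in this way, 55 lower calls are not 55 independent observations.

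On scaled CPM, all 3 DISC1-Δ3 libraries lay below all 3 wildtype libraries for 49 of 81 members, and for 23.2% of all tested genes. On the deposited RPKM this held for 31 members and 16.1% of all tested genes.

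**Figure D3:**
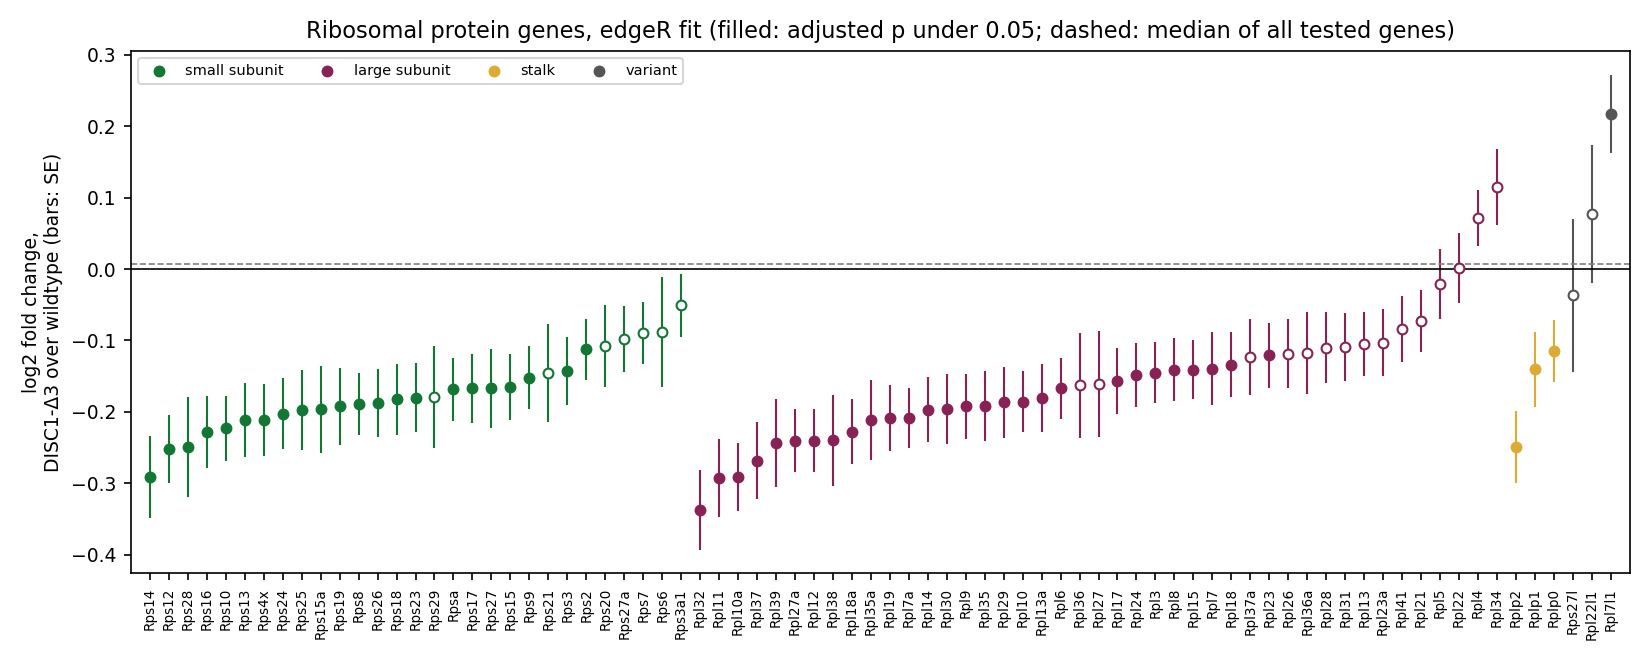
Fitted log2 fold change (DISC1-Δ3 over wildtype, vertical axis) with its SE for the tested members reported here (horizontal axis), by class; filled points passed an adjusted p of 0.05 and the dashed line is the median of all tested genes. The points of the small subunit all lie below 0, Rpl7l1 is the only filled point above it, and Rpl39l, at under 20 reads per library, is left out; on quantile-normalized RPKM 5 members were lower and 7 higher.

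Both subunits took part. In the small subunit 24 of 31 members were lower, none was higher and the median log2 fold change was -0.18. In the large subunit 28 of 43 were lower, none was higher and the median was -0.16; 2 were higher with equal RPKM sums, and 5 on quantile-normalized RPKM. The stalk had all 3 members lower, with a median of -0.14. Over all tested genes 19.5% were lower and 20.4% were higher. Of 197 tested genes that are not members and have a mean RPKM of at least 300, 106 were lower. For the subunits and the stalk, differences from these genes were not tested. Across the alternatives run the class medians ranged from -0.23 to -0.012 for the small subunit, from -0.20 to 0.0057 for the large subunit and from -0.19 to 0.060 for the stalk, the upper end in each case under quantile normalization.

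Among the 5 largest falls were those of Rpl32, Rpl11, Rps14 and Rpl10a. Rpl32, a large-subunit protein whose gene lies at chr6:115805514-115808743, had a scaled CPM of 670, 700 and 752 in wildtype, compared with 614, 542 and 526 in DISC1-Δ3. The groups did not overlap, and its log2 fold change was -0.34 ± 0.056 (SE, edgeR adjusted p = 0.00011).

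Rpl11, which binds the ubiquitin ligase Mdm2 when ribosome assembly fails, is encoded at chr4:136049354-136053393. It had 538, 607 and 647 CPM in wildtype, compared with 500, 486 and 478 in DISC1-Δ3, without overlap, and fell by 0.29 ± 0.054 on the log2 scale (SE, edgeR adjusted p = 0.000336). Rps14, a small-subunit platform protein whose haploinsufficiency causes anaemia, had 725, 726 and 727 CPM in wildtype libraries, against 666, 568 and 546 in DISC1-Δ3 libraries. Its wildtype values were nearly equal while DISC1-Δ3 1 was well above the other two, and its log2 fold change was -0.29 ± 0.057 (SE, adjusted p = 0.000548). Rpl10a, a large-subunit protein at chr17:28328471-28331033, had 632, 693 and 710 CPM in wildtype, compared with 551, 577 and 536 in DISC1-Δ3, a log2 fold change of -0.29 ± 0.048 (SE, adjusted p = 0.000102). On quantile-normalized RPKM the falls of Rpl32 and Rpl10a still passed the test, and those of Rpl11 and Rps14 did not.

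Members known for a role beyond the common one were mostly lower as well, and none was higher. Of the 20 on a list of such genes 14 were lower, against 55 of all 81 tested members and 19.5% of all tested genes. Members with roles in signalling differed from each other. Rpl5, which binds Mdm2 together with Rpl11, had 536, 590 and 618 CPM in wildtype libraries, against 569, 567 and 584 in DISC1-Δ3 libraries, with full overlap and a log2 fold change of -0.021 ± 0.049 (SE, edgeR adjusted p = 0.761), whereas Rpl11 fell as given above. Rpl23, another Mdm2-binding protein, fell by 0.12 (adjusted p = 0.0431), and Rpl26, which acts on the mRNA of the tumour suppressor that Mdm2 restrains, stood at -0.12 on the log2 scale (adjusted p = 0.0589). Rps6 had 47.0, 56.8 and 59.8 CPM in wildtype, compared with 49.7, 52.9 and 51.6 in DISC1-Δ3. Its groups overlapped and its log2 fold change of -0.088 ± 0.077 did not pass the test (SE, adjusted p = 0.391).

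Among members that contact mRNA or other factors, Rps3, at the mRNA entry channel, fell by 0.14 on the log2 scale (edgeR adjusted p = 0.0221) and Rpsa, the laminin receptor homologue, by 0.17 (adjusted p = 0.0057). The stalk base Rplp0 had -0.11, and the stalk tips Rplp1 and Rplp2 had -0.14 and -0.25. All 5 passed the test. Rps25, needed for initiation at viral internal entry sites, and Rpl38, required for translation of Hox mRNAs in the embryo, fell by 0.20 and 0.24. Rpl10, one of the last proteins to join the large subunit, Rpl24, which bridges the subunits, and Rpl13a, which can leave the ribosome to silence inflammatory mRNAs, fell by 0.19, 0.15 and 0.18. Rps19, the gene most often mutated in Diamond-Blackfan anaemia, fell by 0.19, while Rps20 and Rps27a, made as a fusion with ubiquitin, had log2 fold changes of -0.11 and -0.098 that did not pass (adjusted p = 0.149 and 0.0994).

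The most abundant members were not the most changed. Rps26 fell by 0.19 (edgeR adjusted p = 0.00429), Rps9 by 0.15, Rps15 by 0.17 and Rps2 by 0.11, all past the threshold, and Rpl41, the shortest ribosomal protein, stood at -0.084 on the log2 scale (adjusted p = 0.162).

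Set against the sum of the members instead of all genes, a few genes left the block. With libraries scaled to the summed reads of the members, an analysis added after the data were seen, 4 members were lower and 5 higher, where 8.66% and 37.9% of all tested genes were lower and higher. Rpl32, Rpl10a and Rpl11 were among the lower ones. The 5 higher ones were Rpl5, Rpl22, Rpl4, Rpl34 and Rpl7l1. Rpl4, which lines the exit tunnel, rose relative to the members by 0.23 ± 0.044 on the log2 scale (SE, adjusted p = 0.000447), and on the scale of all genes its change of 0.071 did not pass (adjusted p = 0.158). Rpl34 rose relative to the members by 0.28 ± 0.058 (SE, adjusted p = 0.000873), with 0.12 on the scale of all genes (adjusted p = 0.0984), but its counts are among those divided between genes in every library.

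Of the variant genes 4 were tested, and Rpl7l1 was the only member of any class called higher with TMM scaling. Of all tested genes 20.4% were called higher with that scaling. With equal RPKM sums and with library totals 3 members were called higher, and on quantile-normalized RPKM 7. In these settings 70.1%, 69.2% and 49.5% of all calls over the tested genes were higher. Rpl7l1 encodes a relative of Rpl7 that takes part in the maturation of the large subunit in the nucleolus, and lies at chr17:46773907-46782656. It had 64.6, 64.5 and 67.0 CPM in wildtype libraries, against 76.9, 73.4 and 77.9 in DISC1-Δ3 libraries, without overlap. Its log2 fold change was 0.22 ± 0.055 (SE, edgeR adjusted p = 0.00412), and over the alternatives run it ranged from 0.19 to 0.30 with an adjusted p between 0.000344 and 0.0268.

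The ratio of a variant to its conventional partner within a library needs no scaling between libraries. For every 100 Rpl7 reads there were 9.58, 8.38 and 8.53 Rpl7l1 reads in wildtype, compared with 11.8, 10.7 and 11.4 in DISC1-Δ3, means of 8.83 ± 0.650 and 11.3 ± 0.539 (SD, n = 3 each). The groups did not overlap, and the log2 ratio differed by 0.35 with an exact permutation p of 0.1, the smallest that 3 against 3 libraries allow, or 0.3 after adjustment over the 3 pairs tested. Rpl7 itself, a large-subunit protein, fell by 0.14 on the log2 scale (edgeR adjusted p = 0.0394).

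The other pairs showed no such separation. Rpl22l1, the paralog that can replace Rpl22 in the large subunit, had 9.10, 6.55 and 7.50 reads per 100 Rpl22 reads in wildtype libraries, against 8.49, 8.002 and 7.69 in DISC1-Δ3 libraries (exact permutation p = 0.7). Rps27l, a small-subunit paralog known as a target of the DNA damage response, had 5.25, 5.56 and 6.83 reads per 100 Rps27 reads in wildtype, compared with 5.88, 6.34 and 7.20 in DISC1-Δ3 (exact permutation p = 0.4). In the fit, log2 fold changes were 0.077 for Rpl22l1, 0.0015 for Rpl22 and -0.037 for Rps27l, none past the threshold, and -0.17 for Rps27, which fell (edgeR adjusted p = 0.0237). Rpl39l, the testis relative of Rpl39, had 7 to 16 reads per library and Rpl3l, the muscle relative of Rpl3, had 1 to 7, too few for a ratio.

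The share of the whole mRNA pool shows the same difference at a size that the libraries do not fully separate. The 83 genes took 4.69%, 4.98% and 5.03% of all expected counts in wildtype and 4.72%, 4.66% and 4.53% in DISC1-Δ3 libraries, means of 4.90 ± 0.181% and 4.64 ± 0.0959% (SD, n = 3 each). Wildtype 1 lay below DISC1-Δ3 1, so the groups overlapped. Of the summed RPKM they took 14.5%, 14.9% and 15.1% in wildtype libraries, against 14.1%, 13.8% and 13.7% in DISC1-Δ3 libraries, without overlap. RPKM weights short mRNAs more, and members are short: their median implied length was 584 bases for conventional genes and 2687 for all tested genes. Removing each library's trend with transcript length before the fit left 57 members lower and 2 higher, where 20.1% of all tested genes were lower.

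**Figure D4:**
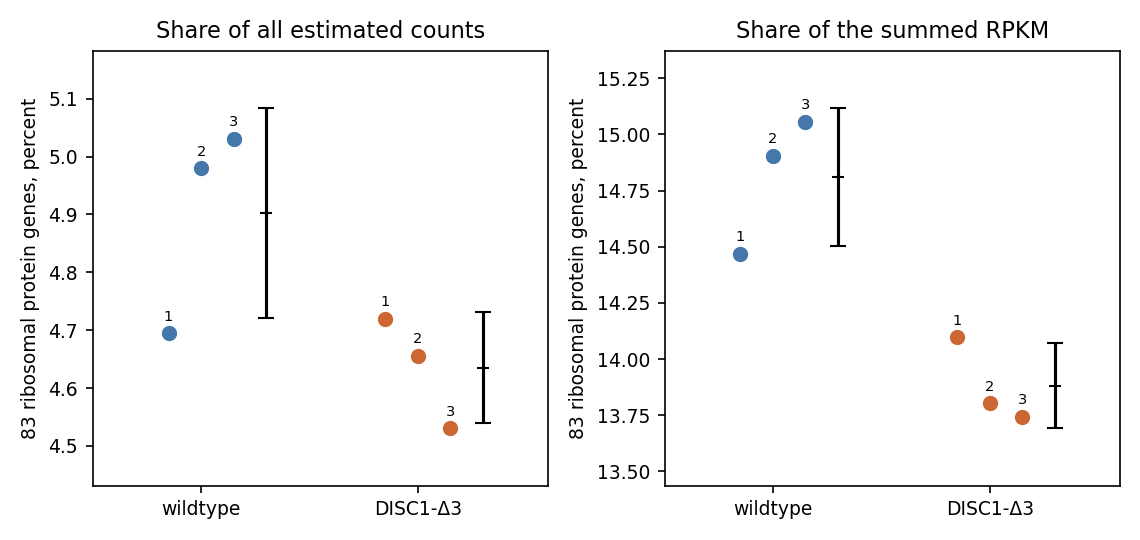
Share of the 83 ribosomal protein genes in all expected counts (left) and in summed RPKM (right), in percent, on axes that do not start at 0; points are libraries with their replicate number, bars the mean ± SD of 3. On the left wildtype 1 (4.69%) falls among the DISC1-Δ3 libraries (4.53% to 4.72%), and on the right the groups do not overlap.

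Members were also counted by divided reads, shared words and the C and T run. Among 64 tested members with whole counts 45 were lower and the median log2 fold change was -0.17, and among 17 with fractions 10 were lower with a median of -0.17. The 8 tested members that share under 10% of their 50-base words with other genes had 4 lower and a median of -0.14, and the 22 that share over 50% had 15 lower and a median of -0.16. Of the 13 tested members with a C and T run at the annotated start 10 were lower, with a median of -0.19, and of the 48 with a promoter entry but no such run 31 were lower, with a median of -0.17. Differences between these counts and medians were not tested.

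Some ribosomal protein genes have names outside the symbol rule. Of 4 such genes 3 were lower and none was higher, with a median of -0.24: Fau, a ubiquitin-like protein fused to a small-subunit protein (-0.30, edgeR adjusted p = 3.47e-05), Rpl36al, a close copy of Rpl36a (-0.29, adjusted p = 0.00503), and Rack1, the signalling scaffold on the small subunit (-0.19, adjusted p = 0.00478). With TMM scaling 19.5% of all tested genes were lower and 20.4% higher. On quantile-normalized RPKM the change of Rack1 turned to 0.019.

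Mitochondrial ribosomal protein genes are the most similar family. Of 78 tested, none was lower and 4 were higher, with a median log2 fold change of 0.041, where 19.5% of all tested genes were lower and 20.4% higher. Their summed reads averaged 30057 in wildtype, against 761616 for the members, so a given change passes less easily. Mrpl22, the lowest, at -0.24 ± 0.11 (SE, edgeR adjusted p = 0.0915), did not pass, while Rpl38, at -0.24 ± 0.063, did (SE, adjusted p = 0.00591). The largest rises were those of Mrps6, at 0.42 ± 0.088 (SE, edgeR adjusted p = 0.000938), and Mrpl21, at 0.33 ± 0.12 (SE, adjusted p = 0.0324). As a share of all expected counts these 78 genes took 0.187%, 0.197% and 0.197% in wildtype, compared with 0.212%, 0.214% and 0.207% in DISC1-Δ3, without overlap. Such a share follows library totals, and with that scaling the median log2 fold change was 0.12 for these genes and 0.090 for all tested genes. The counts depended on the setting, with 14 higher and none lower both with equal RPKM sums and with library totals, 20 higher and none lower with limma on log2(RPKM + 1), and 9 higher and 4 lower on quantile-normalized RPKM. Calls over the 13792 tested genes moved as well. With equal RPKM sums, library totals and limma on log2(RPKM + 1), 5849, 5962 and 5757 of them were called. Of those calls 70.1%, 69.2% and 69.2% were higher, and on quantile-normalized RPKM 49.5% of 5332 calls were. Over the alternatives run, 2 to 20 were higher, 0 to 4 were lower and the median lay between -0.0034 and 0.13.

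**Figure D5:**
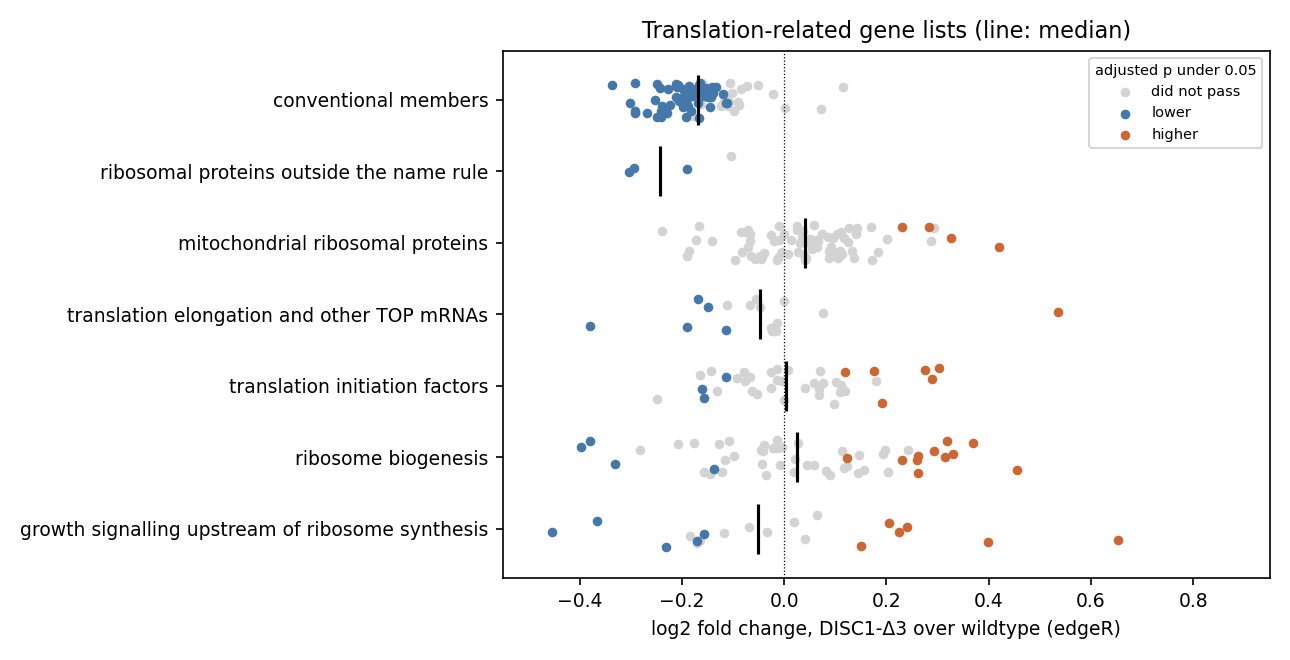
Fitted log2 fold change (horizontal axis) of each tested gene in 7 translation-related lists (rows), coloured by whether it was lower or higher at an adjusted p under 0.05; black lines are medians. Conventional members (median -0.17) and ribosomal proteins outside the name rule (-0.24) lie to the left, the other lists around 0; on quantile-normalized RPKM the member median was 0.0025.

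Other genes of translation were mixed. Elongation factors and other mRNAs known to carry a TOP tract, 17 in all, had a median of -0.047. Of these 17, 5 were lower and 1 was higher, where 19.5% and 20.4% of all tested genes were. Those with the largest changes were Nap1l1, a nucleosome assembly protein, which rose by 0.54 on the log2 scale, and Npm1, the nucleolar chaperone of ribosome assembly, which fell by 0.38, followed by Rack1. Of 38 initiation factors and their regulators 6 were higher and 3 lower, with a median of 0.0040, against 20.4% higher and 19.5% lower among all tested genes. With equal RPKM sums 14 were higher and none lower, with library totals and with limma on log2(RPKM + 1) 13 were higher and none lower, and on quantile-normalized RPKM 12 were higher and 2 lower. With equal RPKM sums 5849 of the 13792 tested genes were called, 70.1% of them higher. With library totals and with limma on log2(RPKM + 1) 69.2% of all calls were higher. Eif2b4, a subunit of the exchange factor for the initiator complex, and Eif1b, a start codon selection factor, rose by 0.30 and 0.29, and Eif4g3, a scaffold of the cap complex, and Eif4ebp2, its repressor, fell by 0.16 each.

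Of 52 ribosome biogenesis genes 11 were higher and 4 lower, with a median of 0.025, and the share that was higher was close to the 20.4% of all tested genes. With equal RPKM sums and with library totals 16 were higher and 1 lower, and with limma on log2(RPKM + 1) 18 and 2. In these settings 69.2% to 70.1% of all calls over the tested genes were higher. Utp4, of the small-subunit processome, rose by 0.46 and Bysl, a small-subunit maturation factor, by 0.37, whereas Gnl3, nucleostemin, fell by 0.40 and Npm1 as above. The difference between this list and the members was not tested.

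Of 20 genes of growth signalling upstream of ribosome synthesis 6 were higher and 5 lower, with a median of -0.052. Over all tested genes 20.4% were higher and 19.5% lower. Rps6ka2, an RSK kinase, rose by 0.65 and Mycn, a Myc-family transcription factor that drives ribosome synthesis, by 0.40 (edgeR adjusted p = 0.0056), while Eef2k, the kinase that slows elongation, fell by 0.45 and Rps6ka1, another RSK kinase, by 0.37. Larp1, the TOP mRNA-binding protein, fell by 0.17 (adjusted p = 0.0127). Myc, Mtor and Rps6kb1, an S6 kinase, had log2 fold changes of -0.12, 0.065 and -0.034, none of which passed (adjusted p = 0.0642, 0.394 and 0.843). Direction over the alternatives varied for the medians of all these lists, with ranges of -0.073 to 0.057 for TOP mRNAs, -0.016 to 0.091 for initiation, -0.014 to 0.11 for biogenesis and -0.14 to 0.051 for signalling.

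Of 197 abundant tested genes that are not members, with a mean RPKM of at least 300, a level set after the data were seen, 106 were lower and 23 higher, with a median of -0.14, where 19.5% of all tested genes were lower and 20.4% higher. Among the members 55 of 81 were lower and 1 was higher, with a median of -0.17. The difference between these genes and the members was not tested.

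The cell types in the samples moved at the same time. Among all tested genes 19.5% were lower and 20.4% higher. All 12 microglial markers were lower in DISC1-Δ3, as were 6 of 8 astrocyte and 5 of 8 mature oligodendrocyte markers. The astrocyte marker Gfap rose by 0.34 on the log2 scale (edgeR adjusted p = 2.97e-06), and all 8 erythroid, 6 of 8 neuronal and 4 of 8 endothelial markers were higher. Summed RPKM went from 1965 to 2005 in wildtype to 1888 to 1906 in DISC1-Δ3 for astrocyte markers, and from 2445 to 2477 to 2258 to 2290 for mature oligodendrocyte markers. Neuronal markers summed to 346 to 348 and 413 to 435, and endothelial markers to 235 to 248 and 279 to 287. None of the marker sums overlapped between groups and no defining marker was at 0. The part of these cell types in the ribosomal protein result was not tested, and in bulk RNA fewer cells of a type cannot be told apart from less RNA per cell.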

How the data were processed

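RNA of 3 wildtype and 3 DISC1-Δ3 OPC samples was selected with oligo(dT) and sequenced as single-end reads of 50 bases. Per the submitters' processing notes, Bowtie2 2.2.5 and the genome build mm10 were used; the counting tool is not given in the sources used here. The authors deposited an expected count (an estimated count with shared reads divided between genes) and an RPKM (count per transcript length and library total) for each gene and library. Columns of group averages (4) were not used, and no per-sample column was left unmapped.

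The members, the gene lists and the tests were chosen with earlier results of these data known. Expected counts were rounded to whole numbers and tested with edgeR 4.0.16 in R 4.3.3 (estimateDisp, glmQLFit, glmQLFTest) with TMM scaling and a term for genotype only, two-sided, with Benjamini-Hochberg adjustment over the 13792 genes at 0.5 RPKM or more in 3 or more of the 6 libraries and a threshold of 0.05. CPM are counts divided by library totals on that scaling. RPKM values were tested with limma 3.58.1 as log2(RPKM + 1) or log2(RPKM + 0.1), and DESeq2 1.42.0, which the study names, was an alternative. Variant to conventional ratios were compared by two-sided exact permutation tests where both genes had at least 10 reads in every library. Members were named when among the 5 largest changes in each direction, the 5 highest or lowest levels, a paralog pair, a list of known roles, below the filter or with divided reads; from other lists the 2 largest changes each way were named, with Myc, Mycn, Mtor, Larp1, Rps6kb1 and Disc1. Rpl4 and Rpl34 were picked after seeing their values. Gene positions, promoters and transcripts came from RefSeq GRCm38.p6, the assembly of mm10, which matched all 83 members by gene ID (63 for promoters), and from GENCODE. Some genes that this rule names stayed in every fit and count but are not reported here. Scripts were tested on simulated data. There, with the 81 tested members lowered by 0.17 on the log2 scale and no other gene changed, edgeR recovered 5 of them. In the data 5498 of the 13792 tested genes were called, which makes the adjusted threshold less strict. The simulation also gave all genes the same spread and no shared movement between libraries, so it does not measure power in the data. Reads carry no molecular identifiers, so depth limits precision by counting error at least.

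The replicate numbers did not pair the libraries: deviations from the group means of same-numbered libraries correlated at 0.058, 0.022 and -0.049 across all tested genes, which are not independent replicates.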

Additional observations from a re-analysis of the deposited data

How the results depend on the processing

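The 55 members lower and 1 higher, with a median of -0.17, moved most under the next settings, of which those with limma change the test and the unit as well as the scaling. With equal RPKM sums the values were 24, 3 and -0.081, with library totals 23, 3 and -0.085, with limma on log2(RPKM + 1) 25, 3 and -0.092, with a pseudocount of 0.1 26, 3 and -0.093, and on quantile-normalized RPKM 5, 7 and 0.0025. The first 4 of these raise the median of all genes by a similar amount, from 0.0075 to between 0.075 and 0.094, and raise the share of higher calls among all calls from 51.1% to 69.2% to 70.1%; why quantile normalization removes the difference was not tested. Scaled to the member sum, by construction, there were 4 lower and 5 higher with a median of -0.0056, and 81.4% of all calls were higher. Removing the length trend gave 2 higher. Leaving out each library in turn gave 34 to 63 lower, 1 to 2 higher, and a median of -0.20 to -0.15. In these fits 15.6% to 24% of all tested genes were lower. Without wildtype 1 and DISC1-Δ3 3 together, an alternative added after seeing the data as was the member sum, 69 were lower. Median-of-ratios and upper quartile scaling, TMM without the members, other filters and DESeq2 gave 53 to 60 lower. With the replicate number as a replicate block, 57 members were lower and 1 higher; the numbers do not pair the libraries over all genes, although over the members each library correlated best with its own number (0.45, 0.36 and 0.60), a hint from the data only.

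On quantile-normalized RPKM the log2 fold change turned for Rpl10 (0.018), Rpl13a (0.047), Rpl24 (0.011), Rpl26 (0.078), Rpl41 (0.14), Rpl5 (0.084), Rpl7 (0.065), Rplp0 (0.060), Rplp1 (0.068), Rps2 (0.037), Rps26 (0.060), Rps27 (0.020), Rps27a (0.054), Rps3 (0.0075), Rpsa (0.038), Rack1 (0.019) and Rps6kb1 (0.062). Genes near 0 turned elsewhere. With equal RPKM sums Rpl41 was at 0.0024, Rpl5 at 0.066, Rps27l at 0.052 and Rps6kb1 at 0.054, and with library totals Rpl5 was at 0.062, Rps27l at 0.047 and Rps6kb1 at 0.050. With limma on log2(RPKM + 1) Rpl5 was at 0.065, Rps27l at 0.054, Rps6 at 0.0017 and Rps6kb1 at 0.16, and with a pseudocount of 0.1 at 0.065, 0.055, 0.0018 and 0.18. Rpl22 (0.0015) was at -0.0054 with median-of-ratios scaling and with DESeq2, at -0.0011 with upper quartile scaling, -0.0031 without a filter, -0.015 with filterByExpr, -0.0069 without the length trend and -0.056 without wildtype 1 and DISC1-Δ3 3, where Rpl22l1 was at 0.17, Rpl5 at -0.090 and Rps6 at -0.18, the last pair then past the threshold. With each library left out, values ran from -0.053 to 0.036 for Rpl22, -0.076 to 0.025 for Rpl5, -0.16 to 0.077 for Rps27l, -0.0087 to 0.14 for Rpl22l1, -0.21 to 0.067 for Rps6kb1 and -0.037 to 0.20 for the log2 ratio of Rpl22l1 to Rpl22.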
